A study of Mus musculus with 6 samples.

Results

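The 7 genes described here are the core of the type 2 helper T cell (Th2) program: the transcription factor gene Gata3, the cytokine genes Il4, Il5 and Il13, the receptor gene Il4ra and the chemokine receptor genes Ccr8 and Ccr4. They were chosen as a list of symbols and measured by the probe sets that the platform annotation assigns to one of these symbols alone, taking the probe set with the highest mean over the 6 arrays. All 7 were found among 22180 genes. They were read in CD4+ T cells taken from mouse spleen with magnetic beads, cultured in RPMI medium with 10% fetal bovine serum and stimulated for 12 hours with 1 µg/ml of antibodies to CD3 and CD28. All cells of the study thus received the same stimulus through the T cell receptor and its co-receptor. The ConCM group received control conditioned medium, the PlGFCM group received medium conditioned by HEK-293 clones that overexpress the PlGF2 form of placental growth factor, and the IL6_ConCM group received the control medium with IL-6 at 20 ng/ml. HEK-293 is a human embryonic kidney cell line, so a comparison of PlGFCM with ConCM sets one conditioned medium against another, with all that the clones release. Each group held 2 replicate samples. The sources used here give no strain, age or sex of the mice and do not say whether the 2 replicates of a group were separate animals or cultures. The p-values therefore rest on the spread among these 6 samples, which may be technical.

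GATA3 is the factor that commits a helper T cell to the Th2 fate and opens the linked genes of IL-4, IL-13 and IL-5. IL-4 acts back on T cells through a receptor whose binding chain is encoded by Il4ra, and the signal runs through JAK kinases to STAT6, which in turn raises Gata3 and Il4ra. CCR4 and CCR8 guide Th2 cells, and also many regulatory T cells, towards the chemokines CCL17, CCL22 and CCL1.

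The stretches before the start sites of Il4 and Il13 are shown because these neighbouring cytokine genes gave very different signals, and those of Il4ra and Ccr8 because these genes differed most between the media. They are RefSeq sequences of build GRCm38.p6, the 250 bases before the annotated start, 5′ to 3′ on the gene's strand. For Il4, which has 2 annotated starts, the more upstream one is shown. Capitals mark matches on either strand to GGAAAA, a core of NFAT sites, to TTC and GAA with 4 bases between them, the spacing of STAT6 sites, to TTC and GAA with 3 bases between them, the spacing of STAT3 sites, and to GATA preceded by A or T and followed by A or G.
Il4 (chr11:53618666-53618915, - strand): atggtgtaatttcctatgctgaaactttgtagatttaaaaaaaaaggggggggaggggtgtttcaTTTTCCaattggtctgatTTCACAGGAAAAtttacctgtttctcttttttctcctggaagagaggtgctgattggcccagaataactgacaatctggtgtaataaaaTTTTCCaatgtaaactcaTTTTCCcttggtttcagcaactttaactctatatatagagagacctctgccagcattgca
Il13 (chr11:53634703-53634952, - strand): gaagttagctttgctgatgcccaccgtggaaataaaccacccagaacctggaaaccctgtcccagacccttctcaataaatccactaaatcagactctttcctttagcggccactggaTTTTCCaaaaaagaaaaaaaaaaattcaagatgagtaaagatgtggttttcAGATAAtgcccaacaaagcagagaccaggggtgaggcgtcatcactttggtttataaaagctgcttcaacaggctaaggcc
Il4ra (chr7:125552021-125552270, + strand): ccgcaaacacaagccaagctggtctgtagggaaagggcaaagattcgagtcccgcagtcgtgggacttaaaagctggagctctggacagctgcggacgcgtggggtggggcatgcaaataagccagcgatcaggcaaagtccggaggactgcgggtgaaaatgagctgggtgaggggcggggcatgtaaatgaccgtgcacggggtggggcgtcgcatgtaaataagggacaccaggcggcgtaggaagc
Ccr8 (chr9:120091883-120092132, + strand): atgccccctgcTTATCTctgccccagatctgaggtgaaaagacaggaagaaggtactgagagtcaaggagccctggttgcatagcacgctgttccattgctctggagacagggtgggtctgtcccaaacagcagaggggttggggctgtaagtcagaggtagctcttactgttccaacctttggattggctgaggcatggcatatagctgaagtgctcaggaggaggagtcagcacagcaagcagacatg
The Il4 stretch held 4 NFAT matches, 1 of them overlapping its STAT6-type match, which lies 167 to 158 bases before the start. The Il13 stretch held 1 NFAT match and 1 GATA match, the latter 81 to 76 bases before the start, and the other Il4 start had 1 GATA match. The Ccr8 stretch held 1 GATA match, and no such letters were found in the Il4ra stretch. Of 32851 RefSeq promoter windows of the same length, 20.4% held the NFAT letters, 5.85% the STAT6-type, 7.02% the STAT3-type and 26.5% the GATA letters. A match describes the letters alone and says nothing of binding in these cells.

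The array of PlGFCM replicate 2 stood apart. Its X-inactivation transcript Xist read a log2 level of 8.38, against 3.58 to 3.95 on the other 5 arrays. It also gave the lowest reading of each measured transcript of the Y chromosome. Eif2s3y stood at 8.59 there against 8.90 to 9.14 on the other 5 arrays. Kdm5d stood at 7.07 against 7.42 to 7.77, and Uty at 7.50 against 7.77 to 8.14. Whether RNA of both sexes was mixed in this sample was not tested. The changes of the members in PlGFCM against ConCM are also given without this array. The markers of the labelled cell type were present, with Cd4 at 11.13 to 11.40 and Cd3e, a chain of the T cell receptor complex, at 11.84 to 12.17. Array medians ran from 5.47 to 5.51.

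**Figure D1:**
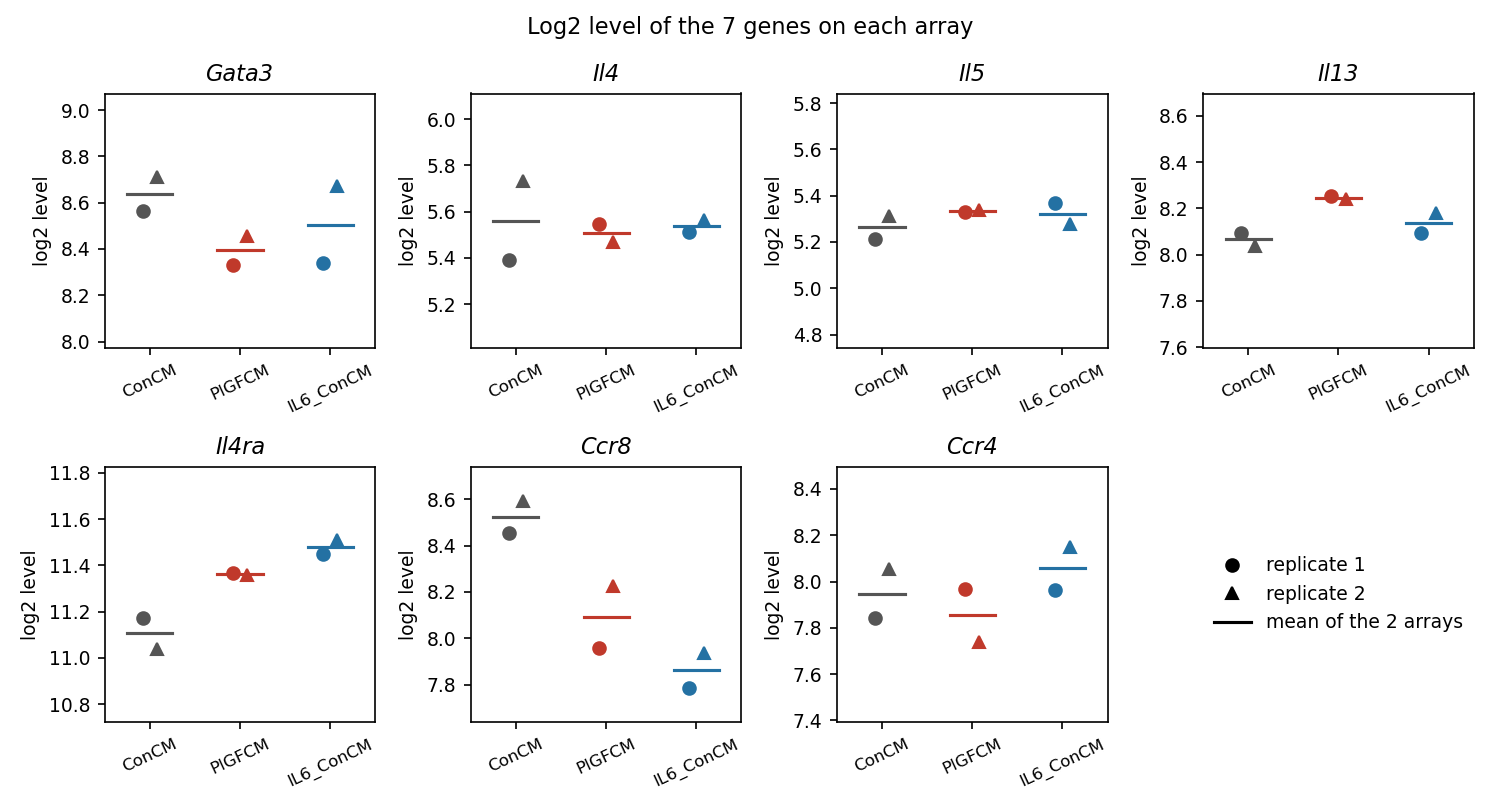
Log2 level (vertical axis, 1.1 units high in every panel) of the 7 genes on each of the 6 arrays by medium, with circles for replicate 1, triangles for replicate 2 and a line for the mean of 2 arrays. Ccr8 is highest in ConCM and Il4ra lowest in ConCM, while the Il4 and Ccr4 points of the 3 media overlap and the Il5 points span 0.15 units.

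No member passed the test between any 2 media. A gene was said to rise or fall where its limma adjusted p over all 22180 genes was under 0.05. By limma, 0 of 7 members passed in PlGFCM against ConCM, where 0.433% of all genes did, 0 of 7 in IL6_ConCM against ConCM, where 0.113% did, and 0 of 7 in PlGFCM against IL6_ConCM, where 0.0316% did. At shares this small, 0 of 7 cannot be told from the background. An unadjusted limma p under 0.05 was reached by 2 members in PlGFCM against ConCM (8.74% of all genes; 4.19% upwards and 4.54% downwards), by 2 in IL6_ConCM against ConCM (5.62%; 2.62% upwards and 3% downwards) and by 0 in the direct comparison (4.37%; 2.56% with PlGFCM higher and 1.81% with it lower). The 2 members were Il4ra, which was higher, and Ccr8, which was lower, in both comparisons. These comparisons share the ConCM arrays, so they are not independent. In RNA of a whole culture, a lower level can mean fewer cells that express a gene or less RNA per cell, and these cannot be told apart here.

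**Figure D2:**
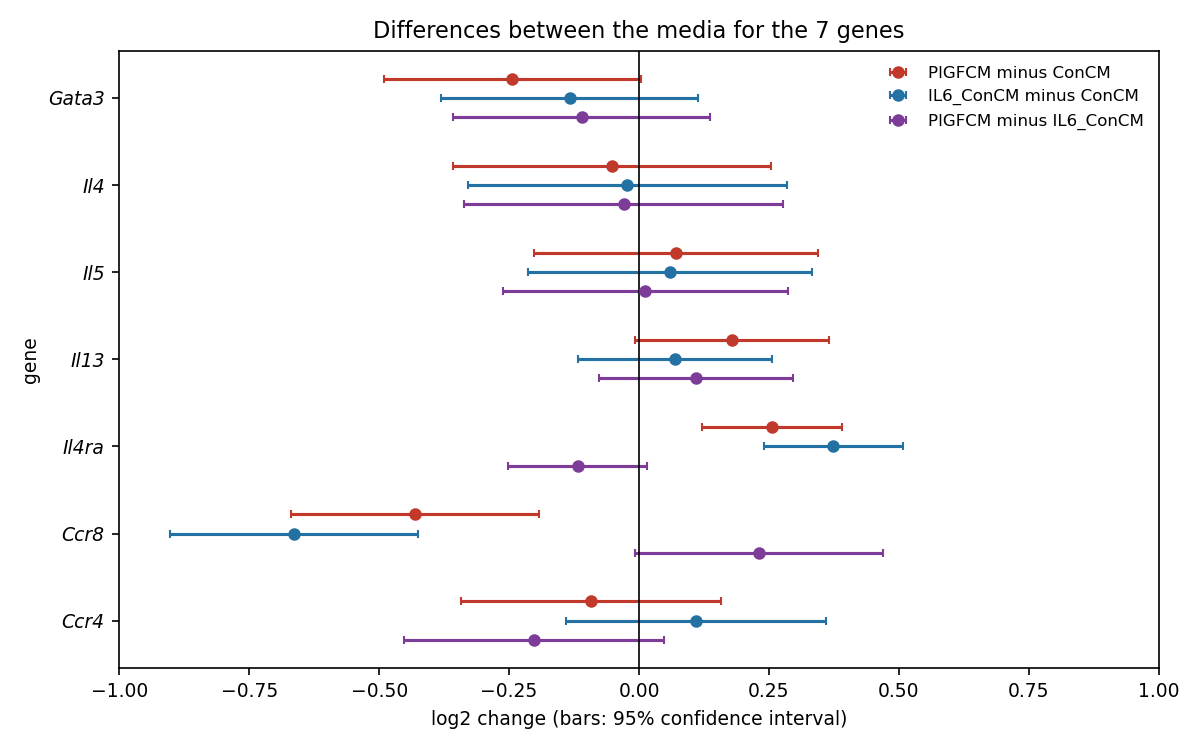
Log2 change of each of the 7 genes (points) with its 95% confidence interval from limma (bars) in the 3 comparisons of media, 2 arrays per group. The intervals of Il4ra and Ccr8 lie clear of 0 in both comparisons with ConCM, and the lowest bound is -0.90.

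For the 5 members that read above the genes of other organs (all but Il4 and Il5), the lowest bound of the 95% intervals over 15 differences was -0.90 and the highest 0.51 on the log2 scale, so each of these intervals lay within a 2-fold change either way. Il4 and Il5 read inside the range of the 21 measured genes of other organs, with 3 and 4 of those genes above them. Their intervals therefore describe the probe sets and set no limit on a change of these transcripts. Data were simulated for PlGFCM against ConCM from the gene means, with independent normal noise of the spread that limma expects. In these data the test recovered 28.1% of changes of 0.5 log2 units and 91.0% of changes of 1. They meet the assumptions of the fit by construction, so recovery on the real arrays may differ.

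Among the factors, Gata3 was lower on the PlGFCM arrays than on the ConCM arrays, but the difference did not pass the test. Gata3 read a log2 level of 8.57 and 8.71 in ConCM, 8.33 and 8.46 under PlGFCM, and 8.34 and 8.67 under IL6_ConCM. The PlGFCM values lie below both ConCM values, and the IL6_ConCM values span nearly the whole range. The log2 change was -0.24 ± 0.11 (SE) in PlGFCM against ConCM (limma adjusted p = 0.575, 95% interval -0.49 to 0.0031), and -0.31 without PlGFCM replicate 2 (limma adjusted p = 0.517). It was -0.13 in IL6_ConCM against ConCM (limma adjusted p = 0.997) and -0.11 in PlGFCM against IL6_ConCM. A further probe set for Gata3 alone, dimmer than the one above, read 6.49 and 6.42 in ConCM, 6.15 and 6.28 under PlGFCM, and 6.43 and 6.32 under IL6_ConCM. Its changes were -0.24, -0.08 and -0.16 in the same 3 comparisons, so the probe sets had the same sign in each and neither passed. They read the same RNA and are no replicates of each other. In the order of the means, ConCM was highest, then IL6_ConCM, then PlGFCM, with gaps of 0.13 and 0.11 that are smaller than the SD of 0.23 in IL6_ConCM.

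Of the 3 cytokine genes, Il13 gave a clear signal, while Il4 and Il5 read inside the range of probe sets of genes that T cells do not use. The 21 measured genes of other organs, such as Apoa1 of liver and intestine, had mean log2 levels from 3.11 to 5.75. Il4, with a mean of 5.54 over the 6 arrays, and Il5, with 5.31, fell inside that range, with 3 and 4 of the 21 genes above them. Il13, with a mean of 8.15, Gata3, Il4ra, Ccr8 and Ccr4 lay above all 21. Probe sets differ in how strongly they bind, so this sets no order of amounts between genes.

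Il13 encodes the effector cytokine of Th2 responses in airway and gut. The Il13 arrays read 8.09 and 8.04 in ConCM, 8.25 and 8.24 under PlGFCM, and 8.09 and 8.18 under IL6_ConCM. Both PlGFCM arrays were above the other 4 arrays, by a small step. The log2 change was 0.18 ± 0.085 (SE) in PlGFCM against ConCM, a 1.13-fold difference that did not pass (limma adjusted p = 0.596, 95% interval -0.0084 to 0.37), and it was 0.19 without PlGFCM replicate 2 (limma adjusted p = 0.578). It was 0.07 in IL6_ConCM against ConCM and 0.11 in PlGFCM against IL6_ConCM, with limma adjusted p = 0.997 and 0.998.

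Il4 encodes the cytokine that induces and sustains Th2 cells. The Il4 arrays read log2 levels of 5.39 and 5.73 in ConCM, 5.55 and 5.47 under PlGFCM, and 5.51 and 5.56 under IL6_ConCM. The ConCM arrays were the lowest and the highest of the 6, so the spread within that group covered all values of the others. The differences in the 3 comparisons were -0.05, -0.02 and -0.03, with 95% intervals that reached from -0.36 to 0.28 at most (limma adjusted p = 0.955 to 0.9998). Without PlGFCM replicate 2 the difference from ConCM was -0.0115.

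Il5 encodes the growth factor of eosinophils. The Il5 arrays read log2 levels of 5.21 and 5.31 in ConCM, 5.33 and 5.34 under PlGFCM, and 5.37 and 5.28 under IL6_ConCM. Its range of 0.15 over the 6 arrays was exceeded by 91.8% of all genes. The differences were 0.07, 0.06 and 0.01 (limma adjusted p = 0.928 to 0.9998), and the PlGFCM difference from ConCM was 0.07 without PlGFCM replicate 2. Since the PlGFCM values lie just above the ConCM values, Il5 counts among the members whose groups do not overlap, with a step smaller than its standard error of 0.12.

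Il4ra, the binding chain of the IL-4 receptor, was higher in both treated media than in ConCM, without passing the test. Its log2 level was 11.17 and 11.04 in ConCM, 11.37 and 11.36 under PlGFCM, and 11.45 and 11.51 under IL6_ConCM. The 3 media did not overlap, with ConCM lowest and IL6_ConCM highest. The log2 change in IL6_ConCM against ConCM was 0.37 ± 0.06 (SE), or 1.30-fold, with a 95% interval of 0.24 to 0.51 and a limma adjusted p = 0.0550, which missed the threshold. It was 0.26 ± 0.06 in PlGFCM against ConCM, or 1.19-fold (limma adjusted p = 0.145), and 0.26 without PlGFCM replicate 2 (limma adjusted p = 0.378). PlGFCM and IL6_ConCM differed by -0.12, with a 95% interval of -0.25 to 0.02 (limma adjusted p = 0.998).

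Ccr8, the receptor of CCL1, showed the largest differences of the 7. Ccr8 read 8.46 and 8.59 in ConCM, 7.96 and 8.23 under PlGFCM, and 7.79 and 7.94 under IL6_ConCM. Both ConCM arrays were the highest, and both IL6_ConCM arrays were below both PlGFCM arrays. The log2 change in IL6_ConCM against ConCM was -0.66 ± 0.11 (SE), a level 1.58-fold lower, with a 95% interval of -0.90 to -0.42 and a limma adjusted p = 0.0550. In PlGFCM against ConCM it was -0.43 ± 0.11, or 1.35-fold lower (limma adjusted p = 0.179), and -0.57 without PlGFCM replicate 2 (limma adjusted p = 0.194). The difference of 0.23 between PlGFCM and IL6_ConCM had a 95% interval of -0.0071 to 0.47 (limma adjusted p = 0.998), and it was 0.10 without PlGFCM replicate 2. The range of Ccr8 over the 6 arrays, 0.81, was exceeded by 3.54% of all genes.

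Ccr4, the receptor of CCL17 and CCL22, did not separate the media. Ccr4 read 7.84 and 8.05 in ConCM, 7.97 and 7.74 under PlGFCM, and 7.96 and 8.15 under IL6_ConCM. All 3 groups overlapped. The differences were -0.09, 0.11 and -0.20 in the 3 comparisons, with limma adjusted p from 0.883 to 0.998. The difference between PlGFCM and ConCM turned to 0.02 without PlGFCM replicate 2. The gaps between the group means, 0.11 and 0.09, were smaller than the SDs of 0.13 to 0.16. Of the chemokine receptors on the list, Ccr8 therefore showed a step between media larger than the spread within them, and Ccr4 did not; the difference between these genes was not tested.

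Over the 7 members, groups did not overlap for 5 in PlGFCM against ConCM, 3 of them higher (Il13, Il5 and Il4ra) and 2 lower (Gata3 and Ccr8), where 38.2% of all genes did not overlap, 17.3% higher and 20.9% lower. For IL6_ConCM against ConCM the members without overlap were Il4ra and Ccr8, 2 of 7 against 34.1% of all genes, 15.7% higher and 18.4% lower. In PlGFCM against IL6_ConCM they were Il13, Il4ra and Ccr8, 3 of 7 against 30.1%, 15.2% higher and 14.9% lower. The median change of the 7 was -0.05, 0.06 and -0.03 in the 3 comparisons, beside -0.01, -0.01 and -0.0030 over all genes. The members thus did not move as a block: Il4ra was higher and Ccr8 lower in both treated media, and Il13 differed from its ConCM level by at most 0.18.

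The threshold lay within reach of the settings for Il4ra and Ccr8 in IL6_ConCM against ConCM. The direction held in all 16 alternatives for both. Il4ra passed in 4 of the 16, with limma adjusted p from 0.0247 to 0.776, and Ccr8 in 5 of the 16, with limma adjusted p from 0.0295 to 0.464. Both passed when only the brighter genes, those not below the median level, were tested, with array weights and with a robust prior. Il4ra also passed without ConCM replicate 1 (limma adjusted p = 0.0314), and Ccr8 with array medians subtracted (0.0295) and with the replicate number as a block. The largest values came from the fit without an intensity trend, and without ConCM replicate 2 the limma adjusted p was 0.365 for Il4ra and 0.407 for Ccr8.

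**Figure D3:**
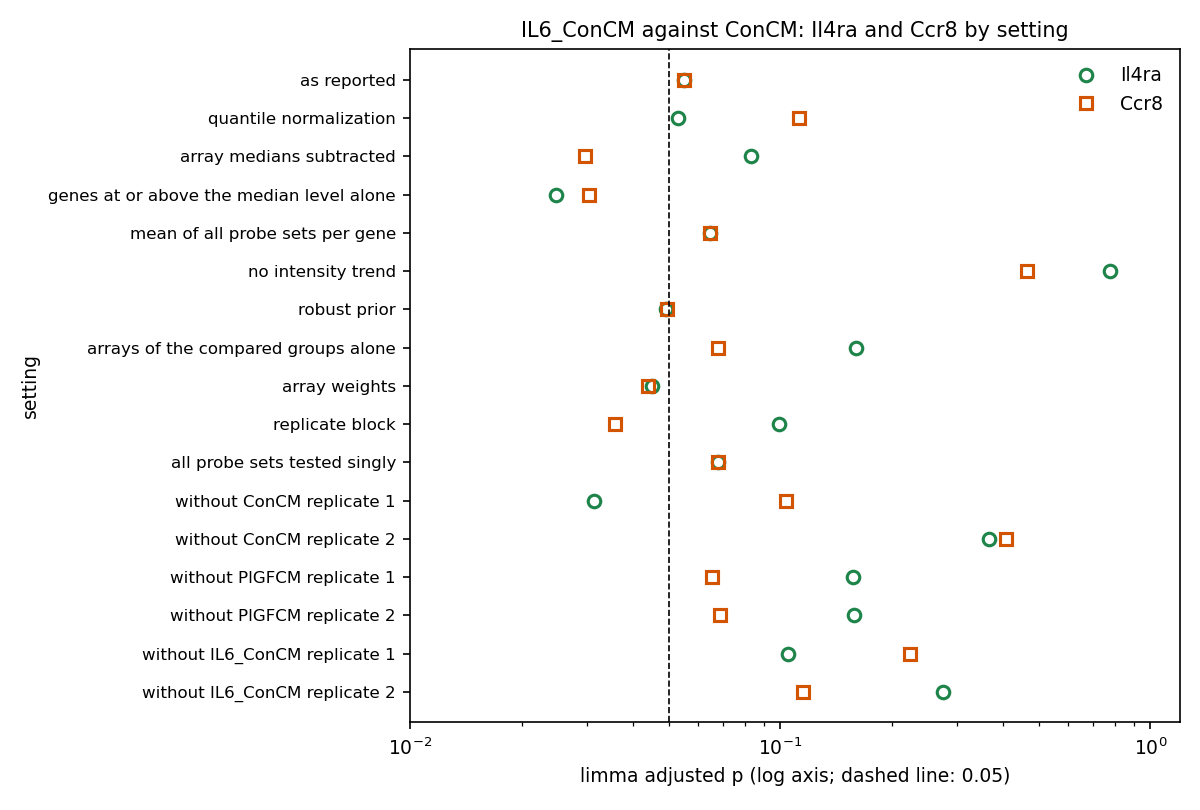
Limma adjusted p (log axis) of Il4ra (circles) and Ccr8 (squares) in IL6_ConCM against ConCM as reported and under 16 alternative settings, with a dashed line at 0.05. As reported both lie at 0.0550, and 4 circles and 5 squares of the alternatives lie left of the line.

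Other cells that carry these receptors or cytokines were checked by their markers. Basophils and mast cells, a source of IL-4 and IL-13, were represented by 9 of 9 measured markers, none of which passed. Mcpt8, their protease, was at 4.11 to 4.60 on all arrays, inside the range of the genes of other organs. The summed level of the 9 on the linear scale was 189 and 196 in ConCM, 202 and 196 under PlGFCM, and 193 and 204 under IL6_ConCM. Of the eosinophil markers 5 of 6 were measured and none passed, with Epx, their peroxidase, at 4.85 to 4.998. Ccr3, at 5.53 to 6.26, differed by 0.40 in PlGFCM against ConCM and 0.43 in IL6_ConCM against ConCM (limma adjusted p = 0.465 and 0.730). Il5ra differed by -0.07 and -0.36 in the same comparisons (limma adjusted p = 0.937 and 0.725). The summed level of the 5 eosinophil markers ran from 161 to 185 over the 6 arrays.

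Regulatory T cells also express Ccr8 and Ccr4. Their factor Foxp3 was at 10.68 to 11.08 over the 6 arrays, and differed by 0.20 in PlGFCM against ConCM and 0.06 in IL6_ConCM against ConCM (limma adjusted p = 0.610 and 0.9998). The summed linear level of the 7 measured regulatory T cell markers was 7894 and 8363 in ConCM, 9233 and 8621 under PlGFCM, and 7805 and 8389 under IL6_ConCM. None passed. All 7 had a higher mean in PlGFCM than in ConCM and than in IL6_ConCM. In IL6_ConCM against ConCM 2 had a higher and 5 a lower mean. B cells carry Il4ra, and the summed level of 9 of 10 listed B cell markers was 927 and 945 in ConCM, 940 and 924 under PlGFCM, and 899 and 910 under IL6_ConCM, and Ms4a1 and Fcer2a fell in PlGFCM. Of the 9, 6 had a higher and 3 a lower mean in PlGFCM than in ConCM, with a median change of 0.21, and the median in IL6_ConCM against ConCM was 0.04. Innate type 2 lymphoid cells, with 5 of 6 measured markers and sums of 1116 and 1297, 1345 and 1280, and 1246 and 1221 in the same order of media, had no marker that passed. Myeloid and dendritic markers had sums of 799 to 905 in ConCM, 865 to 960 in PlGFCM and 879 to 914 in IL6_ConCM, and among their 11 measured members Ly6g rose in both treated media and Clec7a fell in PlGFCM, while Csf1r, the receptor that defines macrophages, was at 6.35 to 6.49. NK and CD8 markers, 8 of 8 measured, had sums of 1035 to 1167, 880 to 906 and 1008 to 1218. Cd8a was at 5.47 to 6.25 and Ncr1 at 4.57 to 5.15, while Cd8b1, at 7.81 to 8.31, lay above all measured genes of other organs. Csf1r lay above them too, as did the B cell markers Cd79a, at 6.88 to 7.16, and Ebf1, at 7.06 to 7.42. The B cell marker Cr2, at 4.62 to 5.63, and the myeloid marker Itgam, at 4.62 to 5.09, lay inside the range of those genes. Gzma rose in both treated media and Gzmb fell in PlGFCM. Of these 6 markers Ly6g passed in PlGFCM against ConCM without PlGFCM replicate 2 (limma adjusted p = 0.0061), and Ms4a1, Fcer2a, Clec7a, Gzma and Gzmb did not, with limma adjusted p from 0.0841 to 0.283. Nor did these 5 pass without PlGFCM replicate 1 (limma adjusted p from 0.0799 to 0.186) or without an intensity trend (0.0996 to 0.308). The part of these cells in the member values was not tested.

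The other genes of the pathway were taken from lists by role, 53 of 59 measured as single genes here. The lists were chosen with earlier results of these data known. The counts for them, here and below, are therefore a description and do not test the pathway against all genes. In PlGFCM against ConCM 2 of the 53 rose and 1 fell, beside 0.352% and 0.0812% of all genes, and 12 were higher and 2 lower at an unadjusted p under 0.05, beside 4.19% and 4.54%. In IL6_ConCM against ConCM 0 rose and 1 fell by limma, beside 0.0857% and 0.0271%, and 5 were higher and 6 lower at an unadjusted p under 0.05, beside 2.62% and 3%. In the direct comparison 0 passed by limma, where 0.0316% of all genes were higher and 0% lower, and 11 were higher and 0 lower at an unadjusted p under 0.05, beside 2.56% and 1.81%. Their median change was 0.08, 0.0061 and 0.06 in the 3 comparisons.

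Among 16 measured factors that promote the Th2 fate, Maf, which drives Il4 transcription, rose in PlGFCM. Its log2 level was 7.31 and 7.62 in ConCM, 8.41 and 8.23 under PlGFCM, and 7.48 and 7.88 under IL6_ConCM. Both PlGFCM arrays were above all others, and the change was 0.85 ± 0.14 (SE; limma adjusted p = 0.0287). Without PlGFCM replicate 2 it was 0.95 and did not pass (limma adjusted p = 0.163), nor did it pass when any other of the 4 arrays compared was left out, with limma adjusted p from 0.0665 to 0.272. None of Maf, Il10 and Eomes, the pathway genes that passed, did so in the fit without an intensity trend, with limma adjusted p from 0.151 to 0.308. Il4 differed by -0.05 in the same comparison. Stat6, which carries the IL-4 signal, was at 9.65 and 9.70 in ConCM, 9.83 and 9.70 under PlGFCM, and 9.71 and 9.72 under IL6_ConCM, with limma adjusted p from 0.806 to 0.9998. Irf4, a partner of NFAT and BATF in activated T cells, differed by 0.15, -0.12 and 0.27 in the 3 comparisons (limma adjusted p = 0.525, 0.970 and 0.468). In PlGFCM against ConCM 10 of the 16 lay above ConCM without overlap, beside 17.3% of all genes, and 7 had an unadjusted p under 0.05 upwards, beside 4.19%. In IL6_ConCM against ConCM 7 of the 16 lay above ConCM without overlap, beside 15.7%, and 3 had such a p upwards, beside 2.62%. In PlGFCM against IL6_ConCM these counts were 6 and 4, beside 15.2% and 2.56%. Downwards without overlap lay 0, 1 and 2 of the 16 in the 3 comparisons, beside 20.9%, 18.4% and 14.9%. An unadjusted limma p under 0.05 downwards was reached by 0 in each, beside 4.54%, 3% and 1.81%.

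Among 11 factors and cytokines that oppose the Th2 fate, Eomes, a factor of Th1 and cytotoxic cells, fell in both treated media, from 7.99 and 7.50 in ConCM to 6.48 and 6.32 under PlGFCM and 6.51 and 6.09 under IL6_ConCM. The changes were -1.34 (limma adjusted p = 0.0091) and -1.44 (limma adjusted p = 0.0080), and the PlGFCM call was lost without PlGFCM replicate 1 (0.0817) or PlGFCM replicate 2 (0.136), the IL6_ConCM call without IL6_ConCM replicate 2 (0.0552). Tbx21, which encodes the Th1 factor T-bet, an opponent of GATA3, was at 9.004 and 8.93 in ConCM, 8.67 and 8.76 under PlGFCM, and 8.66 and 8.24 under IL6_ConCM. Its differences of -0.25 and -0.52 against ConCM did not pass (limma adjusted p = 0.592 and 0.230), although the latter passed without IL6_ConCM replicate 1 (0.0341). Of the 11 opposing genes, 1 was lower at an unadjusted limma p under 0.05 in PlGFCM against ConCM, beside 4.54% of all genes. In IL6_ConCM against ConCM 4 were lower, beside 3%. In both comparisons 0 were higher, beside 4.19% and 2.62%. In PlGFCM against IL6_ConCM 2 were higher and 0 lower, beside 2.56% and 1.81%. Gata3 and Tbx21 both had lower means in the treated media than in ConCM, and neither passed.

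None of 12 measured genes of IL-4 and Th2 receptor signalling passed. Il2ra, the high-affinity chain of the IL-2 receptor, differed by at most 0.11 (limma adjusted p = 0.556 to 0.998). Among 7 other cytokines and secreted factors, Il10, which Th2 and other helper cells make, rose from 5.96 and 6.01 in ConCM to 7.12 and 7.14 in PlGFCM, a change of 1.14 ± 0.15 (SE; limma adjusted p = 0.0091), which did not pass without PlGFCM replicate 1 (0.108), PlGFCM replicate 2 (0.127) or ConCM replicate 2 (0.0665). It read 6.33 and 6.83 in IL6_ConCM.

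The ligands of the chemokine receptors did not pass either. Ccl22 was at 10.71 and 11.09 in ConCM, 10.87 and 10.66 under PlGFCM, and 10.43 and 10.71 under IL6_ConCM, with differences of -0.13, -0.33 and 0.20. Ccl17 ran from 4.91 to 5.83 and Ccl1 from 4.87 to 5.17 over the 6 arrays, and their means lay inside the range of the genes of other organs. Limma adjusted p of these 3 genes ran from 0.725 to 0.9998.

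Rad50 and Kif3a lie beside Il4 and Il13 on the chromosome, and Irf1 lies beyond Il5. Rad50, whose introns hold the locus control region of the Th2 cytokines, differed by -0.21 in PlGFCM against ConCM and -0.18 in IL6_ConCM against ConCM, and Kif3a by 0.17 and 0.21. Irf1, an interferon-induced factor, was at 10.39 and 10.39 in ConCM, 10.27 and 10.28 under PlGFCM, and 10.10 and 10.05 under IL6_ConCM, so that the 3 media did not overlap. Its change of -0.32 in IL6_ConCM against ConCM did not pass (limma adjusted p = 0.108). None of the 3 neighbours passed in any comparison, with limma adjusted p from 0.108 to 0.998.

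**Figure D4:**
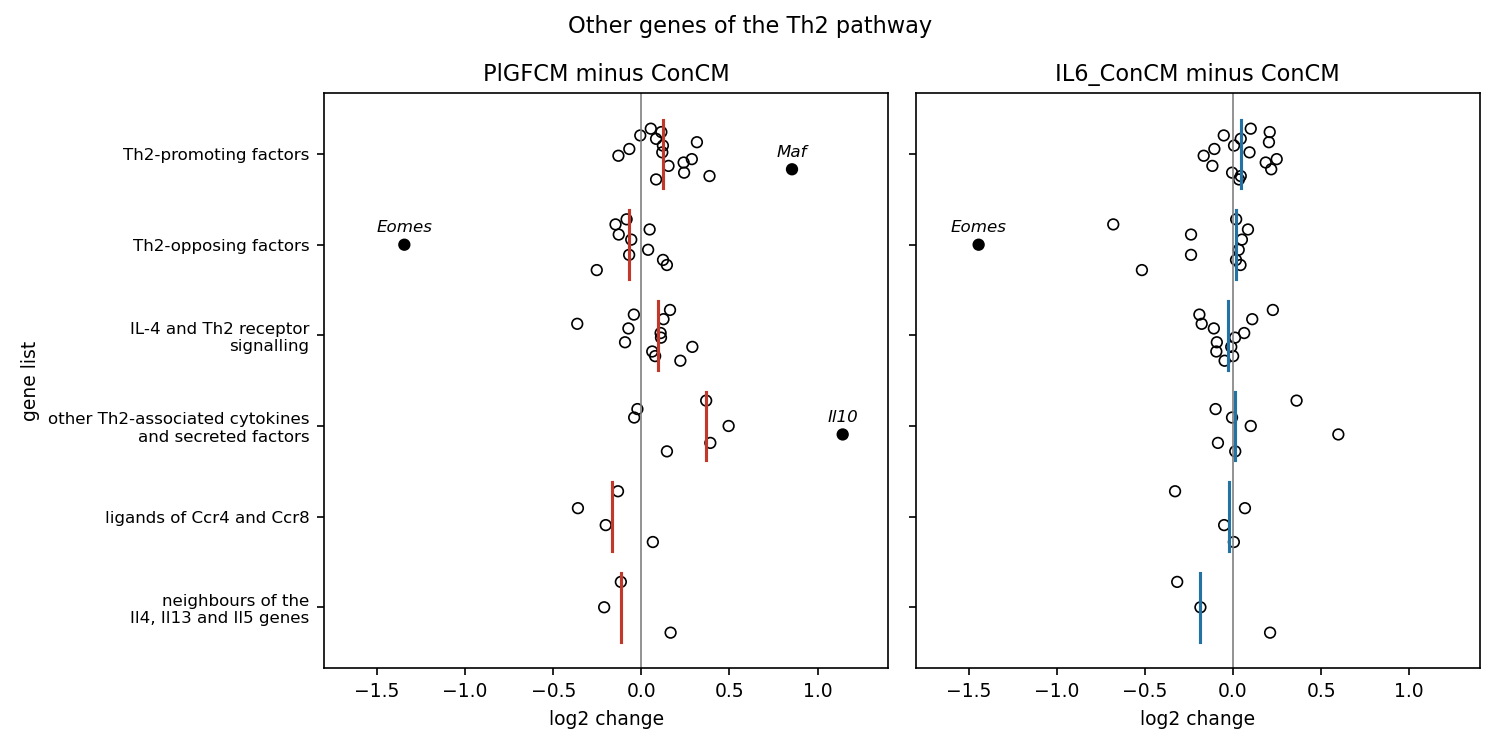
Log2 change of 53 other genes of the pathway (circles, by list on the vertical axis) in PlGFCM against ConCM and in IL6_ConCM against ConCM, with filled circles for limma adjusted p under 0.05 and a coloured line at each list's median. Maf, Il10 and Eomes are filled on the left and Eomes on the right.

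The genes whose levels ran most like each member over the 6 arrays were found by Pearson's r among 795 genes (794 for Ccr8) at or above the median level with an SD of at least 0.2. All values of r share the same 6 arrays and are a description. Nearest to Ccr8 were Ifi214 (r = 0.993) and Rsad2 (r = 0.982), both interferon-induced genes. Rsad2 read 6.65 and 6.77 in ConCM, 6.19 and 6.46 under PlGFCM, and 6.18 and 6.16 under IL6_ConCM, the same order of media as Ccr8. Of the genes compared, 0.882% had an r above 0.9 with Ccr8, 4.03% with Il4ra and 3.77% with Il13. The shares were 0.252% for Il4, 0.126% for Il5 and 0.377% for Ccr4.

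Nearest to Il4ra were Map3k8, which encodes a kinase of inflammatory signalling (r = 0.983), and Il21r, the IL-21 receptor (r = 0.971), and nearest to Il13 were Lpxn (r = 0.982) and Ahr, the aryl hydrocarbon receptor (r = 0.972). Ahr read 7.70 and 7.72 in ConCM, 8.56 and 8.57 under PlGFCM, and 7.84 and 8.20 under IL6_ConCM, so that the PlGFCM arrays were highest, as for Il13. Ccr4 ran most like Myo1f (r = 0.974) and Lyst (r = 0.943), Il4 like Filip1l (r = 0.951) and Adgrg6 (r = 0.910), and Il5 like H2-Q10 (r = 0.955) and the B cell gene Cd79b (r = 0.889). Since Il4 and Il5 read inside the range of the genes of other organs, their values of r describe the probe sets and may reflect noise. Gata3 had no gene with an r above 0.9, and its nearest were Prh1 (r = 0.879) and Apc2 (r = 0.869).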

How the data were processed

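Total RNA of 6 samples was read on Affymetrix whole-transcript arrays. The authors deposited a log2 level per probe set, for which the submitters' processing notes name Transcriptome Analysis Console. The sources used here name no version of it, background correction, normalization or genome build. That the scale is log2 follows from the range of 1.15 to 13.41. Of 41345 probe sets, 23521 had 1 gene symbol, 1814 several and 16010 were unnamed here; 23328 gene IDs were found in RefSeq, with 0 changes of symbol. A gene was read by its brightest probe set among those with 1 symbol, with no filter on low levels.

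Groups follow the treatment labels, 2 arrays each, and their number limits the precision. The 3 comparisons were tested by limma 3.58.1 in R 4.3.3 (lmFit, eBayes with an intensity trend, all 6 arrays, 3 residual degrees of freedom, Benjamini-Hochberg over all genes). With 2 arrays a side, 0.333 is the smallest two-sided p of an exact permutation test. The fit was tested on simulated data in 5 runs, where 5.48% of calls were false. These data meet its assumptions by construction, so the share of false calls on the real arrays may differ. Alternatives were quantile normalization, array medians subtracted, a filter at the median level, the mean of a gene's probe sets, all probe sets with 1 symbol singly, no trend, a robust prior, the compared arrays alone, a block for the replicate number, array weights and each array left out.

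The members, the gene lists, the motifs and the genes named were chosen with earlier results of these data known. Beside the members, 13 genes were to be named whatever their values, of which Il1rl1 and Il2rg were not analysed here, and any pathway gene that passed. Coordinates are given for the RefSeq promoter windows alone, since the arrays' build is not given.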

Additional observations from a re-analysis of the deposited data

How the results depend on the processing

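In IL6_ConCM against ConCM the number of members that passed, 0 as reported, was 1 with array medians subtracted, 2 when genes below the median level were filtered out, 2 with a robust prior, 2 with array weights, 1 with a replicate block, and 0 to 1 with an array left out; the causes were not tested, except that the filter tests fewer genes. It was 0 in every alternative of the other comparisons. Other pathway genes that passed numbered 3 in PlGFCM against ConCM, 0 without an intensity trend, 2 with a replicate block and 0 to 3 with an array left out; 1 in IL6_ConCM against ConCM, 0 without a trend and 0 (without IL6_ConCM replicate 2) to 2 with an array left out. Replicate numbers were not taken to pair the samples, since nothing in the labels says that they do and 1 of 3 pairs passed a correlation of 0.1: deviations from the group means correlated at -0.04 (ConCM and PlGFCM), 0.11 (ConCM and IL6_ConCM) and 0.03 (PlGFCM and IL6_ConCM). With a replicate block, Ccr8 passed in IL6_ConCM against ConCM (limma adjusted p = 0.0356) and Maf (0.0545) and Clec7a (0.0748) did not in PlGFCM against ConCM. The calls of the other members and of Il10, Eomes, Tbx21, Ms4a1, Fcer2a, Ly6g, Gzma and Gzmb against ConCM did not change with it. The alternatives for Ms4a1, Fcer2a, Clec7a, Ly6g, Gzma and Gzmb were chosen after seeing the data. Over all genes, 96, 25 and 7 passed in the 3 comparisons, against 168, 52 and 10 with the filter, 6, 1 and 0 without a trend, and 62, 16 and 5 with a replicate block. In IL6_ConCM against ConCM it was 41 with array medians subtracted, 47 with array weights and 12 with the compared arrays alone. With an array left out it was 12 (without PlGFCM replicate 2) to 107, 2 (without ConCM replicate 2) to 41 and 0 (without PlGFCM replicate 2 or IL6_ConCM replicate 2) to 5. With 1 array left in a group, that array is assumed to vary like the others. Il4 and Il5 lie below the filter and have 15 alternatives, the other members 16. No member's call reversed. Signs turned, with no call, for Il4 in all 3 comparisons, Gata3 in IL6_ConCM against ConCM and in the direct one, Ccr4 in PlGFCM against ConCM and Il5 in the direct one. With 2 arrays a group, Il4 and Il5 near the level of silent genes, small changes were not detectable.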

Other observations

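A further probe set, shared by Gata3 and the transcripts 9230102O04Rik and 4930412O13Rik, was left out of the tests because it names several genes. It read 4.25 and 4.31 in ConCM, 4.59 and 4.06 under PlGFCM, and 4.12 and 4.25 under IL6_ConCM, inside the range of the genes of other organs, and its PlGFCM arrays were the highest and the lowest of the 6.

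Il24, a cytokine made by Th2 cells, Stat5a and Ecm1, a secreted protein that Th2 cells make, were chosen for mention after their values were seen. In PlGFCM against ConCM Il24 differed by 0.50 (limma adjusted p = 0.188) from 5.64 and 5.50 to 5.98 and 6.15, and it read 5.73 and 5.61 in IL6_ConCM. Stat5a, which carries the IL-2 signal that supports Th2 commitment, differed by 0.39 in PlGFCM against ConCM (limma adjusted p = 0.0909) and by 0.34 against IL6_ConCM (0.487). Ecm1 differed by 0.37 in PlGFCM against ConCM (limma adjusted p = 0.0806) and by 0.36 in IL6_ConCM against ConCM (0.152). None of these passed.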
